A study of Arabidopsis thaliana with 6 samples.

Results

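CYP71B is a subfamily of plant cytochrome P450 genes. Its members were taken as every probe set (the short probes by which an Affymetrix ATH1 array reads 1 transcript) that names a single gene whose symbol in the RefSeq gene table starts with CYP71B followed by a number; the cyclophilin gene CYP71, which is no P450, was left out. This gave 19 of the 22746 probe sets, 1 for each of 19 genes, among 13286 genes read by a single-gene probe set. The symbol rule uses no intensity, but the family was chosen by its log2 changes between scutellarin and mock on these same arrays, CYP71B22 being among the largest falls of named genes. The members' values are therefore a description, and no p-value of a single member is given. The RefSeq table of assembly TAIR10.1 holds 36 CYP71B genes. Of these 36, 17 have no single-gene probe set and are no members. Among the 17, CYP71B19 and CYP71B20 share 1 probe set, and the others have no named probe set.

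The RNA came from whole Arabidopsis thaliana seedlings of the Columbia ecotype, 10 days old. In the scutellarin group, 100 µM scutellarin in 1% DMSO was given for 10 days; in the mock group the seedlings had 1% DMSO alone. Scutellarin is a flavone glucuronide, and DMSO is its solvent and was present in both groups. In both, seeds lay on filter paper, were held for 2 days at 4 °C in the dark, and were then grown at 25 °C with 12 h of light a day. There were 3 arrays per group, each from an independent experiment with 100 pooled whole seedlings per sample, so organs and cell types were mixed. In such samples fewer cells of a type and less RNA per cell cannot be told apart.

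Cytochrome P450 enzymes are haem proteins, in plants mostly held in the membrane of the endoplasmic reticulum, that insert an oxygen atom into small molecules with electrons passed on by a P450 reductase. The CYP71 family is large in plants and acts mostly in specialised metabolism, such as the making or turnover of defence compounds and terpenoids. The best known CYP71B enzyme of Arabidopsis, PAD3 (CYP71B15), catalyses the last step in the synthesis of the phytoalexin camalexin, and its gene has no named probe set here. For most of the other members no substrate is stated here.

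Seedlings grown on scutellarin had lower transcript levels of several CYP71B genes. Of the 19 members, 12 had a mean intensity outside the lowest 30% of all probe sets and entered the fit. Of these 12, 5 fell (CYP71B22, CYP71B24, CYP71B5, CYP71B23 and CYP71B6), none rose and 7 did not pass. Here "fell" means an adjusted p under 0.05 in limma over all 15922 probe sets kept; of those, 9.11% fell, 10.3% rose and 19.4% changed in either direction. At an unadjusted p under 0.05 in limma, the counts of the 12 would be 9 lower and 1 higher, where 17.1% of all kept probe sets were lower and 16.0% higher. The log2 changes of the 5 that fell lay between -2.56 and -0.49. Over the 12, 10 values were negative, with a median of -0.59, against 53.7% negative values and a median of -0.04 over all kept probe sets. Since the family was proposed from this same comparison, its shares are not evidence about it.

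**Figure D1:**
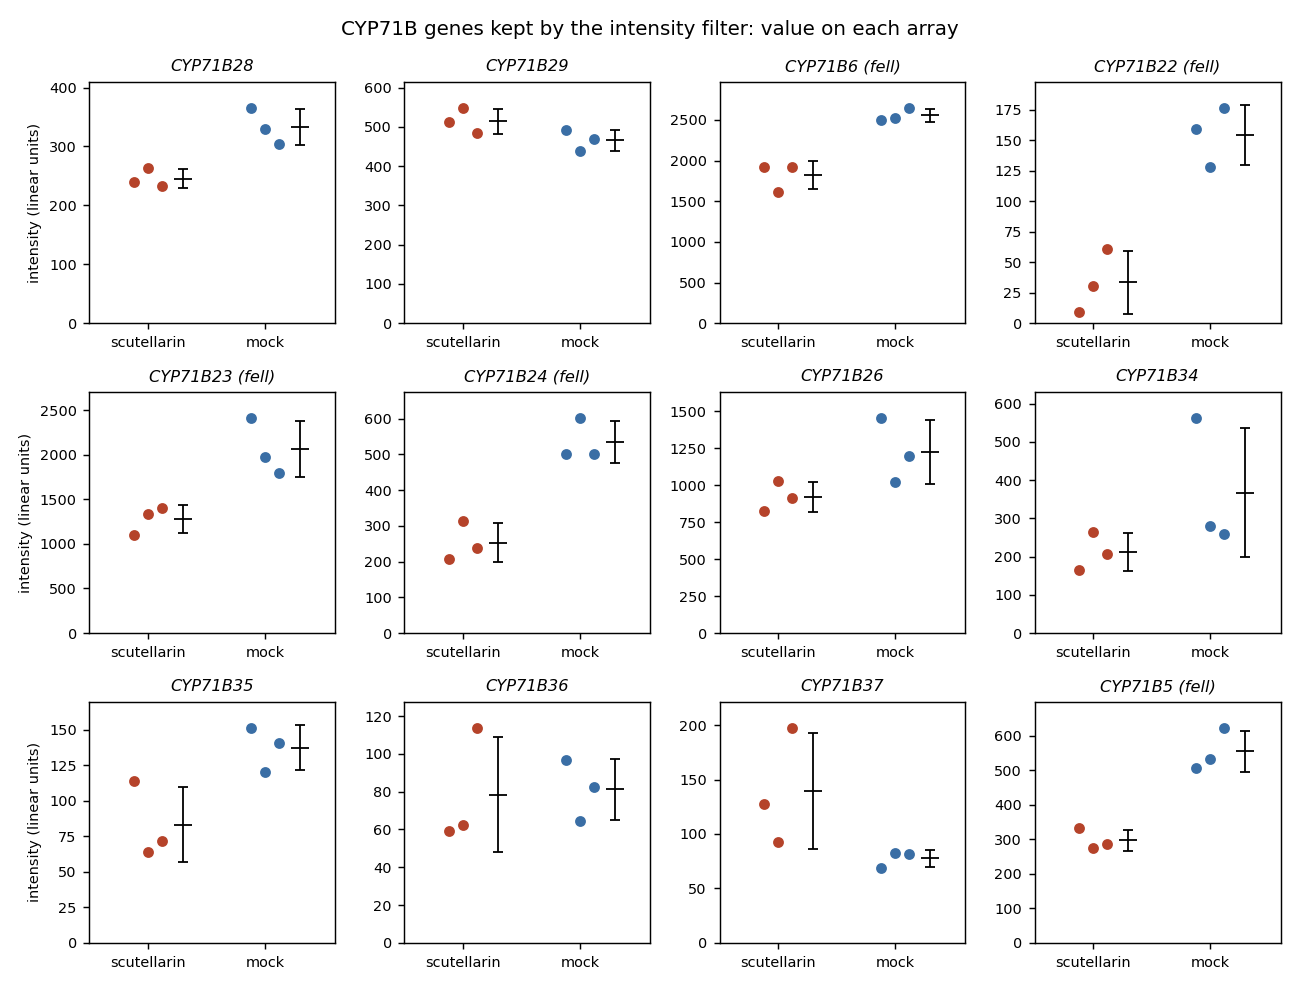
Intensity (linear units, axis from 0) of the 12 CYP71B genes kept by the filter, with 1 point per array for scutellarin (red, left) and mock (blue, right) and the mean ± SD of 3 arrays beside each group. The scutellarin points of CYP71B5, CYP71B6, CYP71B22, CYP71B23, CYP71B24, CYP71B28 and CYP71B35 all lie under the mock points, and those of CYP71B37 lie above them.

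The members are not spread evenly over the genome. In the gene order of the RefSeq table, 11 of the 19 lie in a large run on chromosome 3 that reaches from CYP71B16 to CYP71B37. The first stretch of the run holds 10 CYP71B genes in a row, from CYP71B16 to CYP71B24. After 6 other genes, a second stretch of 8 follows, from CYP71B25 to CYP71B37. CYP71B5, CYP71B30P and CYP71B31 lie near each other farther along chromosome 3, and CYP71B27, CYP71B28 and CYP71B29 on chromosome 1. CYP71B38 on chromosome 3 and CYP71B6 on chromosome 2 have no other member close by. Close copies can share sequence that a probe reads. None of the 19 probe sets has the suffix that marks possible cross-hybridisation, and the probes' own sequences were not used here.

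In the first stretch of the run, the 3 genes kept by the filter, CYP71B22, CYP71B23 and CYP71B24, had lower values with scutellarin and fell; CYP71B22 passed the filter only through the mock group, where it is high, so the count supports nothing. CYP71B22 (AT3G26200) had intensities of 9.34, 30.6 and 61.0 in scutellarin replicates 1 to 3, against 159.0, 127.8 and 176.5 in mock replicates 1 to 3. The scutellarin arrays were all below the mock arrays, and they differed more from each other than the mock arrays did. The mean was 33.6 ± 26.0 with scutellarin and 154.4 ± 24.6 with mock (SD, n = 3 each), a log2 change of -2.56 ± 0.55 (SE). Its geometric mean with scutellarin, 25.9, lay under the filter at 34.8, so the gene was kept through its mock arrays, at 153. Without detection calls, its low scutellarin level could not be separated from background. The size of the change rests on these low readings: the change was -1.82 without scutellarin replicate 1, -3.18 without scutellarin replicate 3, and -1.57 with 32 added to every intensity before log2.

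CYP71B24 (AT3G26230) had 208.1, 312.5 and 236.5 on the scutellarin arrays, against 499.5, 601.5 and 502.1 on the mock arrays. All scutellarin values lay below all mock values, with a wide gap between them. Its mean was 252.4 ± 54.0 with scutellarin and 534.4 ± 58.2 with mock (SD, n = 3 each), so that the scutellarin mean stood at 47.2% of the mock mean. The log2 change was -1.10 ± 0.18 (SE).

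CYP71B23 (AT3G26210), the gene between CYP71B22 and CYP71B3, had 1099, 1331 and 1399 on the scutellarin arrays, against 2413, 1974 and 1801 on the mock arrays. The groups did not overlap, with scutellarin replicate 3 and mock replicate 3 nearest to each other. Its mean was 1276 ± 157.5 with scutellarin and 2063 ± 315.7 with mock (SD, n = 3 each), 61.9% of the mock mean, and the log2 change was -0.69 ± 0.15 (SE).

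The probe set shared by CYP71B19 and CYP71B20, which lie in the same stretch, cannot say which of the pair it reads. It had 712.4, 694.1 and 642.6 with scutellarin, against 1275, 1077 and 1096 with mock. Again no scutellarin array reached a mock array. The log2 change was -0.75 ± 0.13 (SE), and the probe set fell by the same threshold.

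In the second stretch, none of the 5 genes kept by the filter passed in limma (4 had an unadjusted p under 0.05, as had 33.1% of all kept probe sets), and their values went both ways. CYP71B35 (AT3G26310) had 113.8, 64.3 and 71.8 with scutellarin, against 151.5, 120.3 and 140.6 with mock, a log2 change of -0.76 ± 0.28 (SE). Its groups did not overlap, though scutellarin replicate 1 came near mock replicate 2. Without that scutellarin array the change was -1.01 and passed.

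CYP71B34 (AT3G26300) had 164.2, 263.5 and 206.9 with scutellarin, against 562.6, 280.6 and 258.7 with mock, a log2 change of -0.73 ± 0.28 (SE). Mock replicate 1 stood far above the other 5 arrays, which overlapped between the groups, and without it the change was -0.38. CYP71B26 (AT3G26290) had 822.1, 1025 and 915.0 with scutellarin, against 1454, 1023 and 1200 with mock, at -0.40 ± 0.16 (SE). Scutellarin replicate 2 and mock replicate 2 were nearly equal, and without mock replicate 1 the change was -0.27.

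CYP71B37 (AT3G26330), the last gene of the run, went the other way. It had 127.3, 93.0 and 197.5 with scutellarin, against 69.0, 82.5 and 81.8 with mock, a log2 change of 0.78 ± 0.30 (SE). The groups did not overlap, and the scutellarin arrays spread widely above tightly grouped mock arrays. It did not pass with all arrays. Without scutellarin replicate 2 it passed at 1.03, and without scutellarin replicate 3 its value was 0.49. Its neighbour CYP71B36 (AT3G26320) had 59.2, 62.4 and 113.8 with scutellarin, against 97.0, 64.5 and 82.2 with mock. The groups overlapped fully at a log2 change of -0.10 ± 0.34 (SE), with a 95% interval from -0.83 to 0.64 that leaves room for a change either way.

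**Figure D2:**
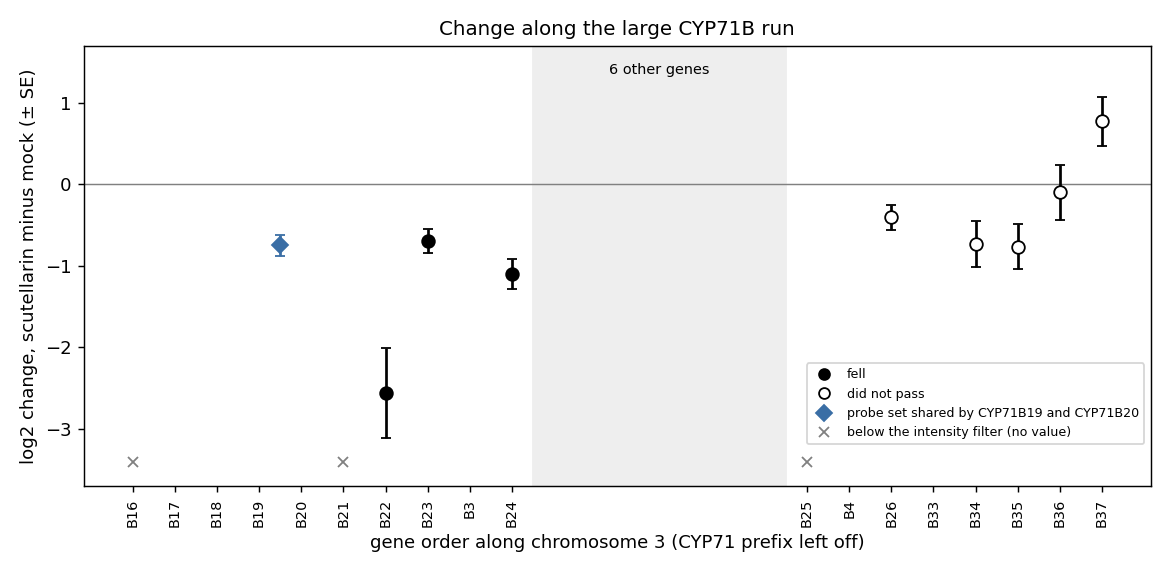
Log2 change, scutellarin minus mock (± SE), against gene order along the large run on chromosome 3, with filled points for genes that fell, open points for genes that did not pass, a diamond for the probe set shared by CYP71B19 and CYP71B20 (which fell) and crosses for members below the filter. CYP71B22, CYP71B23 and CYP71B24 of the first stretch lie between -2.56 and -0.69, and the second stretch spans from -0.76 at CYP71B35 to 0.78 at CYP71B37.

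Of the kept genes of the run, those that fell lie in the first stretch and those that did not pass in the second. This split follows the threshold and not the size of the change alone. CYP71B35 (-0.76) and CYP71B34 (-0.73) of the second stretch had lower log2 changes than CYP71B23 (-0.69) of the first. CYP71B26 (-0.40), CYP71B36 (-0.10) and CYP71B37 (0.78) lay above CYP71B23. The difference between the stretches was not tested. Genes beside the CYP71B genes were read where they had names. Within 10 genes of a member, on either side, 36 single-gene probe sets were named and 21 of them kept. In limma, 0 fell and 1 rose (0 were lower at an unadjusted p under 0.05), with a median log2 change of -0.09. Over all kept probe sets 9.11% fell, 10.3% rose and 17.1% were lower at an unadjusted p under 0.05 in limma. No kept neighbour lay within 10 genes of CYP71B22, CYP71B23 or CYP71B24, so the counts do not cover genes beside them. The only kept neighbour of the first stretch lay 10 genes before CYP71B16. The riser was AT2G24170, the gene directly next to CYP71B6, with 312.1, 286.7 and 459.1 on the scutellarin arrays, against 29.7, 64.2 and 107.5 on the mock arrays. It was higher in all 3 scutellarin arrays, at a log2 change of 2.55 ± 0.39 (SE, limma adjusted p = 0.000799), opposite in sign to CYP71B6. The other 20 lay between -0.80 and 0.79. AT3G53270, next to CYP71B5, had the lowest value, -0.80 ± 0.42 (SE), and did not pass. None of the 6 genes between the stretches had a named probe set.

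Outside the large run, CYP71B5 and CYP71B6 fell. CYP71B5 (AT3G53280, chromosome 3) had 332.2, 275.3 and 284.9 with scutellarin, against 507.5, 532.2 and 622.5 with mock. Both groups were tight and far apart. Its mean was 297.5 ± 30.5 with scutellarin and 554.0 ± 60.5 with mock (SD, n = 3 each), 53.7% of the mock mean, and the log2 change was -0.90 ± 0.16 (SE). Without 1 array in turn, the change lay between -0.98 and -0.81.

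CYP71B6 (AT2G24180, chromosome 2) encodes an enzyme of indole metabolism that turns indole-3-acetonitrile into indole-3-carbaldehyde and indole-3-carboxylic acid. It had 1919, 1619 and 1926 with scutellarin, against 2495, 2529 and 2645 with mock. Its mock arrays were the closest together of all kept members, with a coefficient of variation of 3.07%, and every scutellarin array was below them. The mean was 1822 ± 175 with scutellarin and 2556 ± 78.5 with mock (SD, n = 3 each), 71.3% of the mock mean, for a log2 change of -0.49 ± 0.12 (SE). This was the smallest change among the 5 that fell, and it did not pass without mock replicate 2 (-0.50), without mock replicate 3 (-0.47) or with no variance trend (-0.49).

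On chromosome 1, CYP71B28 and CYP71B29 lie next to each other and neither passed. CYP71B28 (AT1G13090) had 239.7, 264.3 and 232.4 with scutellarin, against 365.1, 329.9 and 303.4 with mock. Its groups did not overlap, at a log2 change of -0.44 ± 0.17 (SE). CYP71B29 (AT1G13100) had 511.8, 547.7 and 483.9 with scutellarin, against 491.9, 438.3 and 467.9 with mock. Its groups overlapped, at 0.14 ± 0.14 (SE), with a 95% interval from -0.17 to 0.45.

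**Figure D3:**
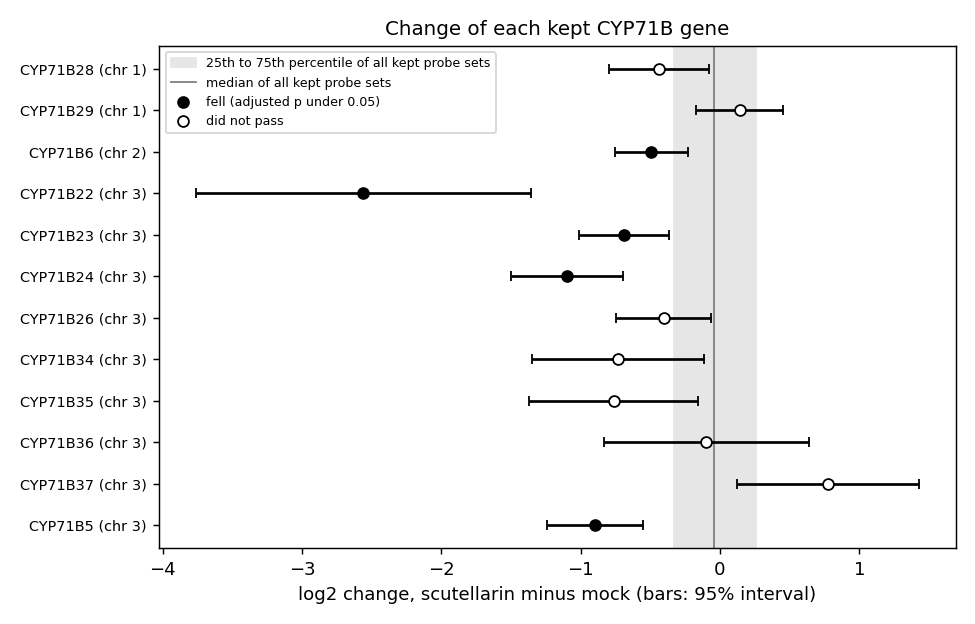
Log2 change, scutellarin minus mock, with its 95% interval for each of the 12 kept CYP71B genes in genome order. Filled points fell and open points did not pass. The grey band and line give the 25th to 75th percentile (-0.33 to 0.26) and the median (-0.04) of all 15922 kept probe sets. The 5 filled points lie left of the band, as do the open points of CYP71B26, CYP71B28, CYP71B34 and CYP71B35. CYP71B37 lies right of it.

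Counted by overlap, which uses no fitted variance, 7 of the 12 kept members had every scutellarin array below every mock array, 1 had every scutellarin array above, and 4 overlapped. Over all kept probe sets 18.6% lay wholly below and 18.6% wholly above, 37.1% in all. The 7 were the 5 that fell, CYP71B28 and CYP71B35. The family was chosen from these same values, and CYP71B22 passed the filter only through its mock arrays. The overlap count is therefore a description and no evidence about the family. Spread within a group differed widely between members. The coefficient of variation over the 3 scutellarin arrays ran between 6.22% for CYP71B29 and 77.2% for CYP71B22, and over the 3 mock arrays between 3.07% for CYP71B6 and 46.1% for CYP71B34.

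Deviations of log2 intensity from the group means, over the 6 arrays, correlated between -0.90 and 0.63 across the 10 pairs of the 5 fallen genes. These 6 points share the arrays and carry few degrees of freedom, so the values cannot say whether any pair varied together within groups.

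The remaining 7 members lay below the filter, which is a cut by rank of mean intensity and measures no background. Detection calls were not used for any probe set here, so these low intensities could not be separated from background. These were CYP71B16, CYP71B21, CYP71B25, CYP71B27, CYP71B30P, CYP71B31 and CYP71B38, and none exceeded 50.4 on any array. CYP71B31 encodes an enzyme that oxidises the floral terpenoid linalool, and it read 1.31, 19.9 and 1 with scutellarin, against 1.31, 16.1 and 1.44 with mock. CYP71B27 is annotated as a transcribed pseudogene and read between 6.36 and 19.5 with scutellarin and between 5.04 and 19.5 with mock. The groups overlapped for 6 of the 7. In CYP71B16 they did not, yet its arrays read 1.25, 1.37 and 1 with scutellarin, against 3.09, 7.71 and 1.59 with mock, all close to the floor of the scale at 1. CYP71B25, which opens the second stretch, read 3.38, 27.5 and 4.29 with scutellarin, against 48.5, 19.3 and 29.9 with mock.

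**Figure D4:**
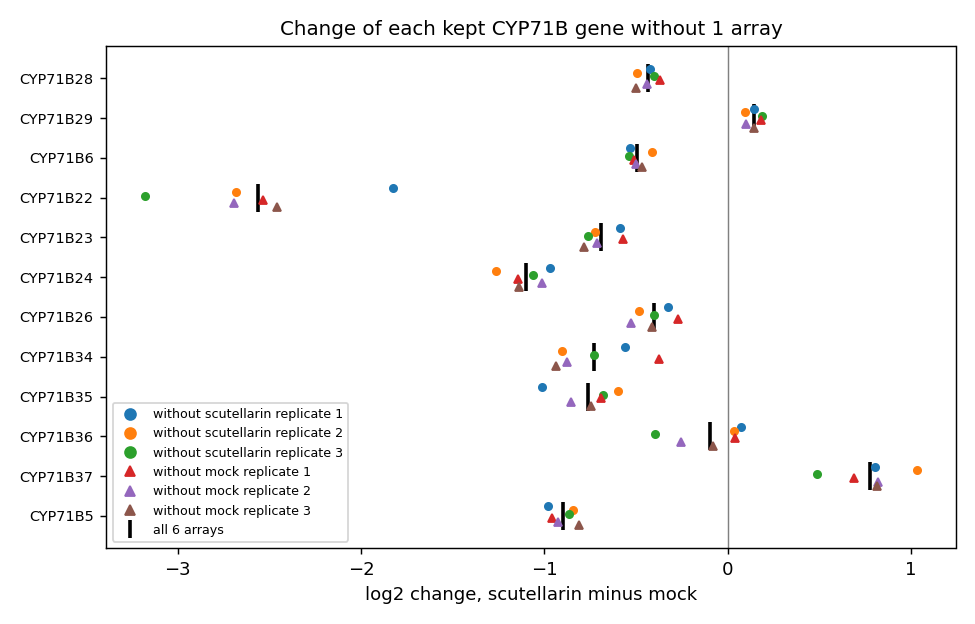
Log2 change, scutellarin minus mock, of each kept CYP71B gene with all 6 arrays (black bar) and without each array in turn (circles without a scutellarin array, triangles without a mock array). CYP71B22 has the widest range, from -3.18 to -1.82, and only CYP71B36 crosses 0, from -0.40 to 0.073.

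Other genes of the superfamily were hardly readable. Only 5 further cytochrome P450 genes had a named single-gene probe set, and 1 of them, CYP84A4 (AT5G04330), was kept. It did not pass, at a log2 change of 0.31 ± 0.27 (SE), so 0 of 1 was called in limma, and 0 of 1 had an unadjusted p under 0.05. No named probe set was found for the 9 listed redox partners of P450 enzymes (P450 reductases, cytochromes b5 and their reductase), nor for the 15 listed genes of the salicylate and pathogen response. Of 18 listed genes for camalexin and indolic glucosinolates, 2 could be read: the member CYP71B6 and 1 gene outside the family, UGT74B1. UGT74B1 (AT1G24100), which glucosylates a glucosinolate precursor, had 750.8, 781.6 and 718.3 with scutellarin, against 549.7, 501.1 and 518.0 with mock. It was higher in all 3 scutellarin arrays, at 0.52 ± 0.13 (SE, limma adjusted p = 0.0174), while CYP71B6 was lower.

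Markers of tissues moved with the treatment as well. The listed markers that are not named here had no named single-gene probe set, so the filter dropped none of them. All 4 kept genes of 8 listed for green tissue (RCA, PSAN, SBPASE and LHCB4.3) fell, where 9.11% of all kept probe sets did. Their summed intensity lay between 43870 and 50980 with scutellarin and between 62500 and 70610 with mock. Both kept genes of 6 listed for root hairs (EXPA7 and EXPA18) rose, where 10.3% of all kept probe sets did. Their sums lay between 619.5 and 864.2 with scutellarin and between 16.5 and 37.9 with mock. All mock values were under the filter at 34.8: 1.81, 7.21 and 22.0 for EXPA7, and 14.7, 30.7 and 8.89 for EXPA18. Both genes passed the filter only through the scutellarin group, where they are high, so this count supports nothing. PYK10, the 1 kept gene of 8 listed for the rest of the root, rose, with 9663 to 12580 with scutellarin and 5349 to 6011 with mock. No kept marker was at the floor of 1 on any array, but EXPA7 came close to it, at 1.81 in mock replicate 1. The mock levels of EXPA7 and EXPA18 could not be separated from background. The part of these shifts in the lower CYP71B levels was not tested.

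The genes most like each member were sought by Pearson's r of log2 intensity over the 6 arrays among 8660 other kept genes with a name. With 6 points split by treatment, high values are easily reached, and r is given only as a description. Closest to CYP71B22 was AKINBETA1 (AT5G21170), the gene of a regulatory subunit of an SnRK1 kinase complex (r = 0.993), with a log2 change of -0.47. Closest to CYP71B5 was the photosystem I subunit gene PSAN (r = 0.995), at -0.64, followed by SIZ1 (AT5G60410), a SUMO ligase gene (r = 0.995), at -0.36. Closest to CYP71B6 were AT1G76960 (r = 0.997, -1.97), AT1G55530 (r = 0.995, -0.25) and the expansin-like gene EXLB1 (AT4G17030, r = 0.995, -2.09). CYP71B23 was most like AT3G10880 (r = 0.993, -1.26) and CYP71B24 most like AT3G26510 (r = 0.992, -0.62). CYP71B37, with the highest log2 change among the 12 kept members, was most like AT3G16080 (r = 0.990, 0.34). No CYP71B gene was among the 3 genes most like any other member.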

How the data were processed

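The deposited values are probe set intensities on a linear scale with a floor of 1; per the submitters' processing notes they were made with MAS5 (version and settings: not given in the sources used here). Trimmed means of 493.9 to 495.1 on the 6 arrays show that they had been scaled. No probe set had exactly equal deposited values above the floor on any pair of arrays. Of 22746 probe sets, 13513 named 1 gene in the platform annotation, 503 several and 8730 none; 13436 of the 13513 matched the RefSeq table of TAIR10.1 by gene ID, used for names and gene order only. Sequences were not used here.

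Log2 intensities were used with no normalization of their own, after removal of the 30% of probe sets with the lowest mean log2 intensity. The contrast of scutellarin minus mock was fitted with R 4.3.3 and limma 3.58.1 (lmFit, eBayes with a variance trend, two-sided, Benjamini-Hochberg over 15922 probe sets, threshold 0.05). The script was tested on simulated data. P-values reflect the spread between 3 experiments per group, and the number of arrays limits the precision. The members, lists and tests were chosen with earlier results of these data known. Named were all members, called members of each list, kept neighbours with a call or the lowest value, and the genes most like 6 members; AT3G53270 and the 6 were picked from a wider rule after values were seen. The counts of called probe sets, CYP71B genes and other P450 genes, and the log2 changes of kept members, were also computed under alternatives. These were cross-hybridising probe sets removed, each array left out, the replicate number as a block, and a robust or an untrended variance prior. Further ones were 32 added to intensities, a filter at 50% or none, and median centring or quantile normalization. The shared probe set, neighbours, lists, overlap counts and correlations were not recomputed under them. Figures were drawn with matplotlib 3.10.9.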

Additional observations from a re-analysis of the deposited data

How the results depend on the processing

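Among the log2 changes of the 12 kept CYP71B genes, recomputed under every alternative that kept the gene, 168 of the values held direction and side of the threshold, 3 lost a call, 2 gained one and 3 changed sign. Alternatives that alter only the block, the variance prior or the probe sets kept cannot move a log2 change here. For these the direction was fixed in advance, and only the call could differ. CYP71B6 lost its call with no variance trend (-0.49) and without mock replicate 2 or 3, and ranged from -0.54 to -0.41 without 1 array. CYP71B35 (-1.01 to -0.60) gained one without scutellarin replicate 1 and CYP71B37 (0.49 to 1.03) without scutellarin replicate 2. CYP71B36 changed sign without scutellarin replicate 1 or 2 or mock replicate 1 (-0.40 to 0.073). With the lowest 50% left out, CYP71B22, CYP71B35, CYP71B36 and CYP71B37 were not tested. The number of CYP71B genes that fell was 4 to 6 without 1 array, and the number that rose 0 to 1. Called probe sets numbered 2009 without mock replicate 2 and up to 2833 without another array, against 3094. Fallen ones, 1450 with all arrays, numbered 862 with no variance trend, and 802 to 1437 without 1 array. With the replicate block, 2921 were called, 2776 of them shared, and no CYP71B call changed. The log2 change of CYP71B22, -2.56, could not move with the block, because the groups are balanced. Deviations from the group means correlated at -0.04, -0.09 and 0.11 between arrays of the same number. With so few arrays per group, these values cannot say whether arrays of the same number shared an experiment. No label says that they did. The cause of the shifts between settings was not tested. Of other cytochrome P450 genes, 0 were called in limma under the alternatives that tested any, which was 5 genes with no filter and only CYP84A4 otherwise; with the lowest 50% left out, none was tested.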
